A study of Mus musculus with 58 samples.

Results

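The genes described here encode 7 scavenger and uptake receptors of microglia, namely Msr1, Cd36, Olr1, Scarb1, Lrp1, Cd5l and Cd300lf. They were chosen by name for their role in taking up lipoproteins, lipids, dying cells and protein aggregates, and they are 7 of the 47643 genes listed in each count table, each matched by its symbol to 1 Ensembl identifier. Earlier results of these data were known when the members and the gene lists were chosen. Counts of called genes set beside shares over all genes are therefore a description only. Expression was measured in 34 libraries of mouse microglia, and the 24 cortex samples of the series were not analysed here. Primary microglia were grown from the hippocampi and cortices of newborn pups. Wild-type cultures received vehicle or full-length tau fibrils at 2 µg/ml for 24 h (4 libraries each). The IkbkbCA group (5 libraries) was Cx3cr1 CreERT2/+;IkbkbCA F/F, in which Cre switches on a constitutively active IKKβ from the Rosa26 locus, and its IkbkbWT control (5 libraries) was Cx3cr1+/+;IkbkbCA F/F. The Ikbkb-/- group (4 libraries) was Cx3cr1 CreERT2/+;Ikbkb F/F, in which Cre removes the endogenous IKKβ gene, and its Ikbkb+/+ control (4 libraries) was Cx3cr1+/+;Ikbkb F/F. Cultures of all 4 Ikbkb groups, controls included, received 4-hydroxytamoxifen, so each Cre-carrying group differs from its control in Cre and in having a single intact Cx3cr1 allele as well as in IKKβ, and these cannot be told apart. Below, active IKKβ and loss of IKKβ name the IkbkbCA and Ikbkb-/- comparisons with all these differences in them. Adult microglia were isolated with CD11b beads from male PS19 mice, which carry human P301S tau, and from male non-transgenic mice, named NTG (4 libraries each). All PS19 mice were 10.98 months of age, whereas the NTG mice were 11.18 (NTG 1 and 2) or 10.98 months (NTG 3 and 4).

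Scavenger receptors are surface proteins that bind modified lipoproteins and other negatively charged or lipid-rich ligands and carry them into the endosome. In microglia they also bind fibrillar amyloid and debris of dying cells, and Lrp1 is a known receptor for the uptake of tau. NF-κB is switched on when IKKβ phosphorylates its inhibitor, and the comparisons ask how tau, a tau transgene, active IKKβ and loss of IKKβ changed the microglial transcriptome. Msr1 is the class A macrophage scavenger receptor. Cd36, a class B receptor, takes up oxidized LDL and long-chain fatty acids. Olr1 encodes LOX-1, a lectin-like receptor for oxidized LDL. Scarb1 encodes SR-BI, which takes up cholesterol esters from HDL. Lrp1 is a large endocytic receptor of the LDL receptor family that binds apolipoprotein E. Cd5l encodes a secreted scavenger protein of macrophages, also called AIM, and not a surface receptor. Cd300lf encodes a receptor of the CD300 family that binds phosphatidylserine on dying cells. On GRCm38 with GENCODE names, all 7 are protein-coding genes, at chr8:39581685-39642673 (Msr1), chr5:17781690-17888801 (Cd36), chr6:129485244-129507165 (Olr1), chr5:125277087-125341094 (Scarb1), chr10:127538161-127621148 (Lrp1) and chr11:115116214-115133992 (Cd300lf), all on the minus strand, and at chr3:87357881-87371073 on the plus strand (Cd5l). In introns, Scarb1 overlaps Gm42633 on the same strand, Lrp1 overlaps the antisense gene Gm16217, and Cd300lf overlaps Rab37 on the opposite strand. Whether counting used strand is not given in the sources used here, so reads in these introns could belong to either gene.

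Total counts on genes were 1672052 to 8349128 per library, and expression is given in CPM, a gene's count scaled to its library's total, after TMM normalization over the 34 libraries. Reads came from the 3′ end of transcripts, so each gene is compared with itself across samples. A gene was called at a Benjamini-Hochberg FDR under 0.05 in the edgeR quasi-likelihood test, fitted on all genes of the compared libraries. The labels do not say which cultures came from separate animals, so the p-values measure the spread between these libraries. Ikbkb itself was 22.6 ± 2.81 CPM in Ikbkb-/- and 52.0 ± 4.35 in Ikbkb+/+ libraries (SD, n = 4), with no overlap between groups. It was 52.8 ± 6.63 in IkbkbCA against 46.7 ± 7.06 in IkbkbWT (SD, n = 5), where the 3′ tags may not lie in the transgene. All 12 microglial markers were found in each group, with summed levels of 5129 to 6816 CPM with vehicle, 11013 to 12740 with tau fibrils, 12122 to 23366 in the 4 Ikbkb groups and 33896 to 47188 in adult microglia. Several libraries stood apart. The library PS19 1 had 177 CPM of Xist against 1.80 to 31.1 in the other 7 adult libraries, all labelled male, and 1079 CPM of border-associated macrophage markers against 408 to 517 in the other PS19 libraries. The IkbkbWT and IkbkbCA libraries fell into 3 sets by their deviations from the group means, numbers 1 and 2, number 3, and numbers 4 and 5, with correlations of 0.26 to 0.69 within a set. Library 3 had the most oligodendrocyte marker RNA in both groups, 5052 CPM in IkbkbWT and 1837 in IkbkbCA, against 269.9 to 676 in the other 8 libraries. Xist was 5.65 to 10.4 CPM in Ikbkb-/- and 243 to 401 in Ikbkb+/+ libraries, and Ddx3y, a Y-linked gene, was 155 to 173 against 35.0 to 69.4, so the groups differed in sex as well. In IkbkbWT Xist was 1.70 to 2.82 CPM in libraries 1 to 3 and 469 to 485 in libraries 4 and 5, with Ddx3y at 143 to 177 and 1.15 to 2.04, against 149.6 to 279 of Xist and 49.3 to 85.9 of Ddx3y in IkbkbCA. The part of these differences in the results was not tested, except where values without a library, within a set or with a covariate are given.

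The promoters of the member whose expression rose most with active IKKβ (Olr1) and of both members lower in 2 comparisons each (Cd36 and Lrp1) are shown, as the 250 bases before the annotated start in RefSeq on GRCm38.p6, read 5′ to 3′ on the gene's strand. Capitals mark matches to the motifs searched.
Olr1: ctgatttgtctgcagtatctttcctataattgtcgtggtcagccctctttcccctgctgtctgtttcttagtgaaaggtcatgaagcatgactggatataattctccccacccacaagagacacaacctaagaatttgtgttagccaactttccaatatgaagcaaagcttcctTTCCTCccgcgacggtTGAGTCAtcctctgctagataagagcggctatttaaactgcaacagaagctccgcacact
Cd36: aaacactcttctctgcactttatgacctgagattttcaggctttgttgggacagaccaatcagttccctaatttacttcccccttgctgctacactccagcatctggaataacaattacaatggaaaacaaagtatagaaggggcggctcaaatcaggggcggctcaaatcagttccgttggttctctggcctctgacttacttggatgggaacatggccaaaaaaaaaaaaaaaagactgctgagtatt
Lrp1: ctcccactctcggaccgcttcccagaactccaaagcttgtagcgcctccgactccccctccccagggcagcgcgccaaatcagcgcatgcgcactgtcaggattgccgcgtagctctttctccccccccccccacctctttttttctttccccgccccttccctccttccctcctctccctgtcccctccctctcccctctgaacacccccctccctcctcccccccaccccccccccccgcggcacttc
The Olr1 window lies at chr6:129507166-129507415, the Cd36 window at chr5:17835897-17836146 and the Lrp1 window at chr10:127621149-127621398, all on the minus strand. Promoters of 5 of the 7 members were in the table, and those of Msr1 and Scarb1 were not matched. Both strands were searched for AP-1 (TGANTCA), PU.1 (GAGGAA) and SREBP (TCACNCCAC) and, by name, for the NF-κB and ISRE consensus sequences, the DR4 element of LXR and the DR1 element of PPAR. The Olr1 window held an AP-1 match that begins 60 bases before the start and a PU.1 match, which reads TTCCTC on the printed strand, 76 bases before it, and these do not overlap. The Cd36 and Lrp1 windows held no match to any of the 7 motifs, and the Lrp1 window had a GC content of 67.2% against 43.2% in Cd36 and 45.2% in Olr1. PU.1 also matched in Cd5l and Cd300lf. Among all 32851 promoters of the table AP-1 matched in 6.75%, PU.1 in 23.3%, NF-κB in 3.90%, ISRE in 2.98%, SREBP in 1.05%, DR1 in 0.164% and DR4 in 0.0670%. A match is a run of letters and not a measured site. Cd36 has several annotated starts, of which 1 is shown.

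Across the 8 groups the members followed different orders. Msr1 and Cd36 were lower in adult microglia than in any culture group on average, with Msr1 at 29.7 ± 23.6 CPM in PS19 and 18.4 ± 3.86 in NTG against group means of 113 to 307 in cultures. Cd36 means were 16.1 ± 14.9 in PS19 and 14.8 ± 1.62 in NTG against 33.7 to 166 in cultures, where the ranges of IkbkbCA and PS19 overlapped. Lrp1 and Cd300lf had their highest means in adult microglia, with Lrp1 at 753 ± 154 CPM in PS19 and 745 ± 121 in NTG and Cd300lf at 149.6 ± 47.0 in PS19 and 190.1 ± 91.5 in NTG (SD, n = 4). Cd300lf did not overlap between adult microglia and any culture group, and it was lowest in the vehicle group, at 3.73 ± 1.83 CPM. Cd5l was highest in Ikbkb-/-, at 72.3 ± 3.10 CPM, and lowest in NTG, at 1.30 ± 0.487. Olr1 was scarce outside IkbkbCA, with group means of 0.127 to 3.82 CPM. Scarb1 varied least, from 23.1 ± 5.25 CPM in IkbkbCA (SD, n = 5) to 39.7 ± 8.48 in PS19 (SD, n = 4), and each group's range overlapped that of its neighbour in the order. Neighbours in the order did not overlap at 1 step for Msr1 (IkbkbWT to PS19), 1 for Cd36 (Ikbkb+/+ to Ikbkb-/-), 2 for Lrp1 (IkbkbWT to vehicle and IkbkbCA to tau fibrils), 1 for Cd5l (Ikbkb-/- to Ikbkb+/+) and 3 for Cd300lf (PS19 to IkbkbCA, IkbkbWT to tau fibrils, and tau fibrils to vehicle). How many of all genes show such gaps was not counted, so these steps are a description only. Steps between groups of different experiments also hold the differences between those experiments, which cannot be told apart from the groups. Cultured and adult cells differ in age and preparation, which cannot be told apart, and in bulk RNA fewer cells of a type cannot be told apart from less RNA per cell.

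**Figure D1:**
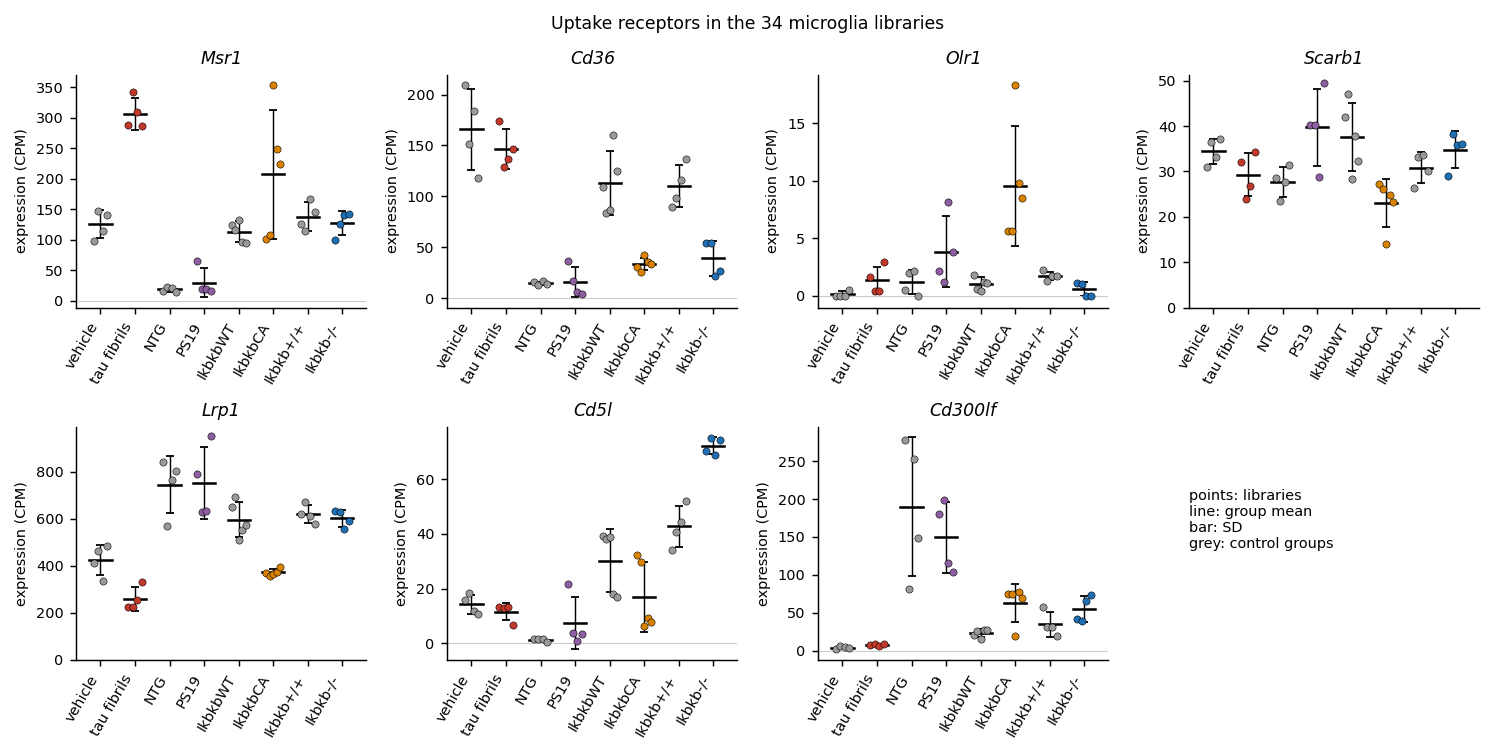
Expression (CPM, linear axes) of the 7 receptor genes in each of the 34 libraries, by group; points are libraries, lines group means and bars SD, with control groups in grey. Cd36 is lower in IkbkbCA and Ikbkb-/- than in their controls without overlap, Msr1 is highest with tau fibrils, and 1 PS19 library (PS19 1) holds the highest adult values of Msr1, Cd36 and Cd5l.

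Tau fibrils raised Msr1 and lowered Lrp1. Of the 6 members tested, 1 was called higher, where 14.5% of the 10408 genes tested were higher, and 1 lower, against 15.4% of all genes. Scaling by total counts alone turned the 1506 higher and 1602 lower genes into 1057 and 2254 and moved the median of all log2 fold changes from -0.011 to -0.16, and with it Msr1 was at 1.17 and Lrp1 at -0.83. Msr1 was 288, 343, 309 and 286 CPM with tau fibrils and 98.4, 147, 115 and 141 with vehicle. All tau-stimulated libraries lay above all vehicle-treated ones, and the log2 fold change was 1.33 (SE 0.14, edgeR quasi-likelihood test, Benjamini-Hochberg FDR = 1.4e-08). Lrp1 was 226, 226, 255 and 332 CPM with tau fibrils and 414, 465, 338 and 483 with vehicle, again with no overlap. Its log2 fold change was -0.67 (SE 0.14, edgeR, Benjamini-Hochberg FDR = 7.1e-04). Markers of cell types moved as well. Of 11 microglial markers tested, 6 were called higher and 1 lower, and the median of their log2 fold changes was 1.08. Summed astrocyte markers were 388 to 455 CPM with tau fibrils and 751 to 821 with vehicle, with 5 of 8 called lower, and summed neuronal markers were 181 to 240.1 against 361 to 464, with 6 of 8 called lower. Border-associated macrophage markers summed to 913 to 1112 CPM against 224 to 293, of which Ms4a7 made up 904 ± 80.3 against 169.7 ± 23.4 (SD, n = 4), while Lyve1 was at 0 with tau fibrils and Cd163 at 0 with vehicle. Their part in the changes of Msr1 and Lrp1 was not tested.

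The other members did not pass the test with tau fibrils. Cd36 was 174, 129, 136 and 147 CPM with tau fibrils and 209, 152, 184 and 118 with vehicle, and the log2 fold change was -0.14, with an interval of 2 SE from -0.45 to 0.17. Scarb1 had a log2 fold change of -0.20 (SE 0.19) and Cd5l of -0.28 (SE 0.28), with overlapping groups in both. Cd300lf was 7.63, 8.65, 6.22 and 8.20 CPM with tau fibrils, all above the 1.63, 5.91, 4.36 and 3.05 with vehicle. It missed the threshold with a log2 fold change of 0.96 (SE 0.39, edgeR, Benjamini-Hochberg FDR = 0.0618), and it passed without vehicle library 2 (log2 fold change 1.32, FDR = 0.0277). Olr1 had too few reads to be tested, with 3, 1, 1 and 6 counts with tau fibrils and 0, 0, 0 and 1 with vehicle, which an exact two-sided permutation test of 4 against 4 libraries did not separate (p = 0.0857, where 0.0286 is the smallest possible).

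In adult PS19 microglia none of the 5 members tested was called, higher or lower, where 8 of 11323 genes (0.0707%) were called higher and 0 (0%) lower, and 977 genes had an unadjusted p under 0.05. DESeq2 called 79 genes higher and 19 lower. Scarb1 came nearest, at 40.2, 40.3, 28.9 and 49.6 CPM in PS19 and 28.5, 23.5, 27.6 and 31.4 in NTG. Of the PS19 libraries 3 lay above every NTG library, and the log2 fold change was 0.46 (SE 0.21, edgeR, Benjamini-Hochberg FDR = 0.587). Lrp1 spread over 631 to 954 CPM in PS19 and 569.8 to 842 in NTG, with an interval of its log2 fold change from -0.46 to 0.36. Cd300lf ranged from 104 to 199 CPM in PS19 and from 81.2 to 278 in NTG.

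A single library set the PS19 means of 3 members. In PS19 1 Msr1 was 65.0 CPM, against 15.1 to 19.9 in the other PS19 and 14.3 to 22.3 in the NTG libraries. Cd36 was 36.8 CPM there, against 17.3, 6.17 and 4.25 in the others and 13.1 to 16.6 in NTG, and without that library its log2 fold change went from 0.046 to -0.78 (edgeR, Benjamini-Hochberg FDR = 0.655). Without it that of Msr1 went from 0.61 to -0.12 (FDR = 0.929). Cd5l, too sparse for the filter, had 120 counts in PS19 1, 5 to 21 in the other PS19 and 1 to 7 in the NTG libraries. With no filter it was called (log2 fold change 2.40, edgeR, Benjamini-Hochberg FDR = 0.0112). An exact two-sided permutation test over the 4 and 4 libraries gave p = 0.114 for Cd5l. Olr1 was also untested, with 12, 4, 57 and 23 counts in PS19 and 1, 5, 10 and 0 in NTG, or 2.17, 1.15, 8.18 and 3.76 CPM against 0.518, 1.99, 2.10 and 0, and the exact permutation p was 0.114. Thus 3 PS19 libraries lay above every NTG library for both Cd5l and Olr1. Granulocyte and monocyte markers summed to 446 to 2646 CPM in PS19 and 1576 to 2207 in NTG, with the lowest value in PS19 1. Astrocyte markers summed to 899 to 1987 CPM in PS19 and 667 to 1017 in NTG, and endothelial markers to 406 to 703 against 275 to 452, with no marker of these 3 lists called. Their part was not tested.

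In IkbkbCA microglia 5 members were called, Olr1 among them. Of the 7 tested, 2 were called higher, of which Olr1 passed the filter through its IkbkbCA libraries only, against 7.31% of the 11697 genes tested, and 3 lower, against 7.16%. With total-count scaling the 855 higher and 837 lower genes became 753 and 1252, the median of all genes moved from -0.047 to -0.11, and the same 5 members were called in the same directions. Cd36 fell most, at 30.4, 25.9, 42.8, 35.5 and 33.7 CPM in IkbkbCA and 109.6, 84.1, 86.8, 160.0 and 125 in IkbkbWT. Its groups did not overlap, and the log2 fold change was -1.76 (SE 0.19, edgeR, Benjamini-Hochberg FDR = 9.1e-05). Lrp1 was 369.8, 358, 363, 375 and 396 CPM in IkbkbCA and 650.0, 692, 509.5, 553 and 573 in IkbkbWT. All IkbkbCA libraries lay below all controls, and the log2 fold change was -0.69 (SE 0.086, edgeR, Benjamini-Hochberg FDR = 2.8e-04). Scarb1 was 27.2, 26.1, 14.1, 24.9 and 23.2 CPM in IkbkbCA and 42.0, 47.1, 28.3, 37.9 and 32.2 in IkbkbWT, and all IkbkbCA libraries lay below all controls. Its log2 fold change was -0.70 (SE 0.18, edgeR, Benjamini-Hochberg FDR = 0.0220), which failed without IkbkbWT library 1 (FDR = 0.0657) or 2 (FDR = 0.0612).

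Olr1 and Cd300lf rose. Olr1 was 5.64, 5.61, 18.3, 9.79 and 8.48 CPM in IkbkbCA, or 29 to 99 counts, and 1.83, 0.612, 0.378, 1.15 and 1.13 CPM in IkbkbWT, or 2 to 11 counts. The groups did not overlap, and expression was 8.97-fold higher (log2 fold change 3.16, SE 0.44, edgeR, Benjamini-Hochberg FDR = 5.1e-04). Olr1 passed the count filter through its IkbkbCA libraries alone, where it is high, so these values are a description only. Cd300lf was 74.8, 74.3, 18.7, 77.6 and 69.8 CPM in IkbkbCA and 20.4, 26.3, 14.7, 27.2 and 27.2 in IkbkbWT. Library 3 of IkbkbCA was within the control range and the other 4 lay above it, and the log2 fold change was 1.43 (SE 0.33, edgeR, Benjamini-Hochberg FDR = 0.0118), or 1.69 without that library.

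Msr1 and Cd5l varied between the libraries of a group. Msr1 was 102 and 107 CPM in IkbkbCA libraries 1 and 2, inside the 93.9 to 133 of IkbkbWT, and 353, 248 and 224 in libraries 3, 4 and 5. Over all libraries the log2 fold change was 0.86 (SE 0.30, edgeR, Benjamini-Hochberg FDR = 0.0824), and it passed without IkbkbCA library 1 (1.07, FDR = 0.0296) or 2 (1.03, FDR = 0.0384). It passed in 7 of 21 alternatives in all, among them the 3 sets as a covariate (0.73, FDR = 0.0280), Ddx3y as a covariate (FDR = 0.0331), 1 fit of all 34 libraries (FDR = 0.0327) and DESeq2 (FDR = 0.0198). Within libraries 1 and 2 of both groups it was -0.19 (FDR = 0.158), and within libraries 4 and 5 it was 1.34 (FDR = 4.4e-12). Cd5l was 32.3, 29.8, 6.11, 9.09 and 7.73 CPM in IkbkbCA and 39.4, 38.2, 38.7, 18.05 and 17.003 in IkbkbWT, lower in IkbkbCA within each set. Library 3 lay near libraries 1 and 2 in IkbkbWT and near libraries 4 and 5 in IkbkbCA. In IkbkbWT libraries 1 to 3 held more Cd5l than 4 and 5, the same split of libraries as for Xist. The log2 fold change was -0.83 (SE 0.47, edgeR, Benjamini-Hochberg FDR = 0.291), and -0.97 (FDR = 0.0130) with the 3 sets as a covariate, an analysis added after the data were seen. The 5 called members kept their direction and their call within libraries 1 and 2 and within libraries 4 and 5. These fits, also chosen after the data were seen, reuse 2 against 2 of the libraries that gave the calls. They are therefore not separate support. The log2 fold changes in that order were -1.76 and -2.005 for Cd36, 2.14 and 3.02 for Olr1, and -0.72 and -0.50 for Scarb1. They were -0.87 and -0.52 for Lrp1, and 1.70 and 1.47 for Cd300lf. Beside these changes, summed border-associated macrophage markers were 1829 to 2531 CPM in IkbkbWT and 1414 to 1981 in IkbkbCA, with 4 of 7 tested markers lower and Ms4a7 higher. Of the 12 microglial markers 4 were called higher (Tmem119, Aif1, C1qa and Itgam) and 2 lower (Cx3cr1 and Fcrls). Granulocyte and monocyte markers summed to 20.5 to 90.6 CPM in IkbkbCA and 8.32 to 13.3 in IkbkbWT, without overlap, and S100a8 was called higher. Their part was not tested.

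**Figure D2:**
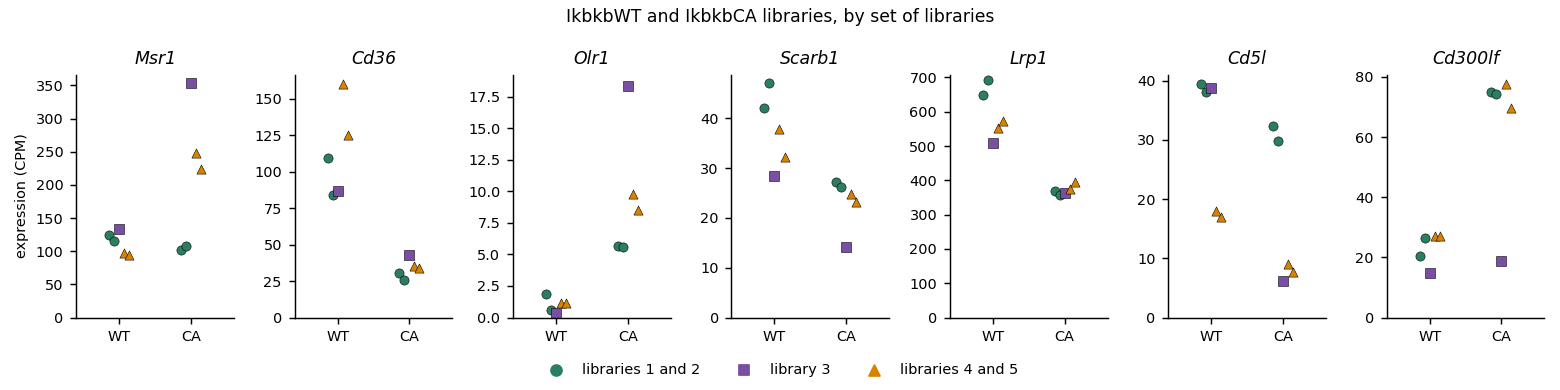
Expression (CPM, linear axes from 0) of the 7 genes in the 5 IkbkbWT (WT) and 5 IkbkbCA (CA) libraries; each symbol is a library and its shape and colour give the set of libraries. Lrp1, Cd36, Scarb1 and Olr1 separate in all sets, whereas Msr1 is higher in libraries 3, 4 and 5 of IkbkbCA and not in 1 and 2, and Cd300lf of IkbkbCA library 3 lies among the controls.

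Cd36 was also lower in Ikbkb-/- microglia, which differed from their controls in Cre, in Cx3cr1 and in sex markers as well as in IKKβ. Of the 6 members tested in Ikbkb-/- microglia, 2 were called higher, against 7.64% of 11242 genes, and 1 lower, against 6.96%. Cd36 was 54.0, 53.8, 22.2 and 26.9 CPM in Ikbkb-/- and 89.1, 98.3, 116 and 136 in Ikbkb+/+. The groups did not overlap, and the log2 fold change was -1.54 (SE 0.22, edgeR, Benjamini-Hochberg FDR = 6.1e-05). Cd5l was 70.4, 75.2, 68.9 and 74.6 CPM in Ikbkb-/- and 34.0, 40.6, 44.5 and 52.0 in Ikbkb+/+. All 4 Ikbkb-/- libraries were higher, by a log2 fold change of 0.75 (SE 0.11, edgeR, Benjamini-Hochberg FDR = 9.4e-05), or by 0.46 (FDR = 0.561) with Ddx3y as a covariate in a fit of the 18 Ikbkb libraries, also added after the data were seen. In 1 fit of all 34 libraries the call was lost too (FDR = 0.565). Cd300lf was 41.5, 39.2, 65.4 and 72.9 CPM in Ikbkb-/- and 57.0, 31.2, 30.7 and 19.1 in Ikbkb+/+. These groups overlapped through library 1 of Ikbkb+/+, which also had 414 CPM of granulocyte and monocyte markers against 9.29 to 97.9 in the other 3. The log2 fold change was 0.79 (SE 0.25, edgeR, Benjamini-Hochberg FDR = 0.0411), or 1.08 without that library, and the call was lost without any 1 of 5 other libraries (numbers 2, 3 and 4 of Ikbkb+/+ and 3 and 4 of Ikbkb-/-, FDR of 0.0985 to 0.178) and with DESeq2 (FDR = 0.296). The Cd300lf call was also lost with Ddx3y as a covariate (0.80, FDR = 0.272) and in 1 fit of all 34 libraries (FDR = 0.395).

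Msr1, Scarb1 and Lrp1 did not pass in Ikbkb-/- microglia. Lrp1 was 632, 627, 558 and 589.8 CPM in Ikbkb-/- and 619, 671, 611 and 579 in Ikbkb+/+, and the interval of its log2 fold change was narrow, from -0.19 to 0.13. That of Msr1 ran from -0.33 to 0.13 and that of Scarb1 from -0.031 to 0.42. Olr1, not tested, had 2, 5, 0 and 0 counts in Ikbkb-/- and 6, 6, 10 and 13 in Ikbkb+/+, or 0 to 1.09 CPM against 1.25 to 2.19. All Ikbkb-/- libraries lay below all controls, and the exact two-sided permutation p was 0.0286, the smallest that 4 against 4 libraries allow. Summed border-associated macrophage markers were 1003 to 1454 CPM in Ikbkb-/- and 2008 to 2373 in Ikbkb+/+, with 6 of 7 tested markers lower and Ms4a7 higher. Of the 12 microglial markers 2 were called higher (Aif1 and C1qa) and 4 lower (P2ry12, Cx3cr1, Csf1r and Siglech). Oligodendrocyte markers summed to 446 to 535 CPM against 233 to 340.3 and endothelial markers to 186 to 237 against 121 to 171, both without overlap, and S100a8 and S100a9 of the granulocyte list were called lower. Their part was not tested.

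**Figure D3:**
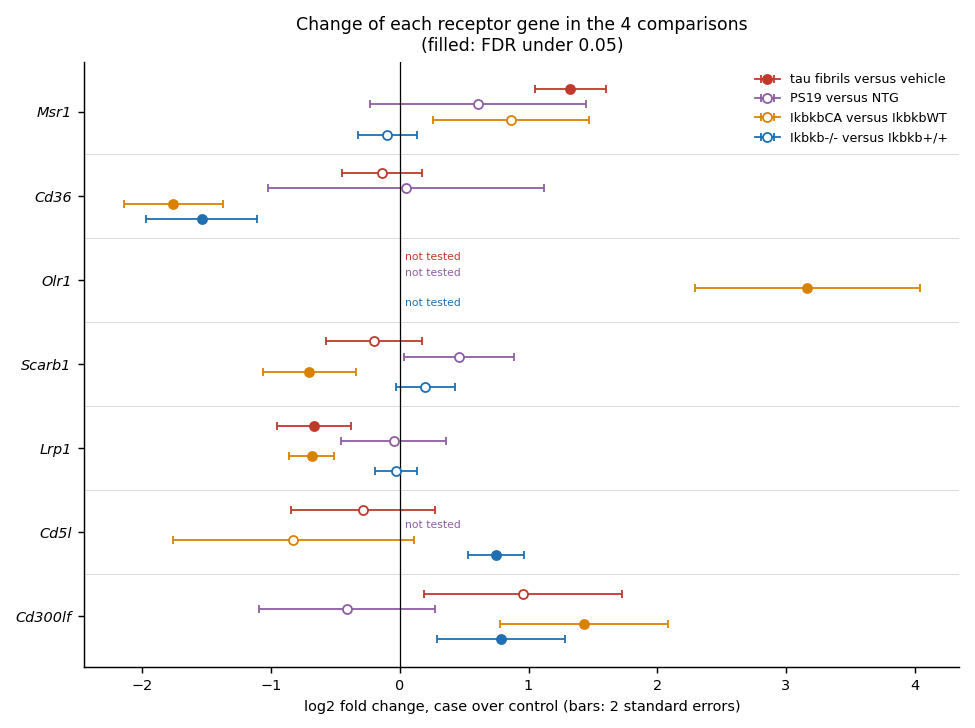
Log2 fold change of each gene (case over control) in the 4 comparisons, with bars of 2 SE; filled points passed a Benjamini-Hochberg FDR under 0.05 in the edgeR quasi-likelihood test. Cd36 is lower in IkbkbCA (-1.76) and in Ikbkb-/- (-1.54) and near 0 with tau fibrils (-0.14). Lrp1 is lower with tau fibrils (-0.67) and in IkbkbCA (-0.69). Both Cre-carrying groups differ from their controls in Cre and Cx3cr1 as well as in IKKβ.

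Differences between effects were tested directly. Between the effects in IkbkbCA and in Ikbkb-/- 3 of the 7 members were called, Olr1 with a limit given with its value. Of 12352 genes 3.12% were called (275 higher and 111 lower, or 252 and 193 with total-count scaling). The effect on Lrp1 was lower in IkbkbCA by 0.64 on the log2 scale (SE 0.12, edgeR, Benjamini-Hochberg FDR = 0.0039), a call lost in 1 fit of all 34 libraries (FDR = 0.0965). For Olr1 the fitted difference was 5.04 (SE 0.88), but Olr1 was too sparse to be tested in Ikbkb-/- and entered this fit through IkbkbCA alone, where it is high, so the value is a description only. That on Scarb1 differed by -0.88 (SE 0.23, FDR = 0.0436), and this call failed without any 1 of 13 of the 18 libraries (numbers 1, 2 and 4 of IkbkbWT, 4 and 5 of IkbkbCA and all 8 of the Ikbkb-/- experiment, FDR of 0.0536 to 0.116). The effects on Cd36 differed by -0.23, with an interval from -0.92 to 0.45, so these libraries do not show that the effects are alike. Those on Msr1 (0.98, FDR = 0.206), Cd5l (-1.56, FDR = 0.144) and Cd300lf (0.71, FDR = 0.529) did not pass, although Cd5l was called in Ikbkb-/- and not in IkbkbCA, and its difference passed without IkbkbCA library 1 (-1.94, FDR = 0.0402). In the test of tau fibrils against IkbkbCA 1 of 7 members differed, where 9.42% of 12841 genes did. This was Cd36, whose effect with tau fibrils lay 1.55 above that in IkbkbCA (SE 0.27, edgeR, Benjamini-Hochberg FDR = 9.7e-04). The effects on Lrp1 differed by -0.053, with an interval from -0.41 to 0.30. Between tau fibrils and the PS19 genotype none of 6 members tested differed, where 8.07% of 11852 genes did (524 higher and 433 lower, or 464 and 587 with total-count scaling). Single libraries decided this, since Msr1 passed without PS19 1 (1.44, FDR = 7.8e-04) and Cd300lf without NTG 2 (1.5995, FDR = 0.0329). Cd5l was too sparse to be tested in PS19 against NTG. It passed the filter of this fit with the tau fibril and vehicle libraries added, so its values are a description only. The fitted Cd5l difference was -2.71, or -2.99 without PS19 3. Without PS19 1, which held most Cd5l, it was only -1.12.

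The wider families of these receptors were counted in lists. The shares over all genes to set beside each count are 14.5% higher and 15.4% lower with tau fibrils, 0.0707% and 0% in PS19, 7.31% and 7.16% in IkbkbCA, and 7.64% and 6.96% in Ikbkb-/-. Some calls depended on the scaling. With total-count scaling 6 of 43 list genes lost their call with tau fibrils (Cd68, Ap2s1, Bin1, Nr1h2, Apoe and Ndst2) and 1 of 26 in Ikbkb-/- (Abcg1), and with RLE 4 of 30 lost theirs in IkbkbCA (Cltb, Dnm2, Soat1 and Ndst1). Of 17 other scavenger receptors, 8 were tested with tau fibrils and 5 were called higher and 0 lower, with the median of their log2 fold changes at 0.44 against -0.011 for all genes. Marco, a class A receptor like Msr1, rose by 6.34 on the log2 scale, from 3.43 ± 1.36 to 264 ± 48.5 CPM (SD, n = 4), and Cxcl16, a receptor for oxidized LDL and phosphatidylserine, by 2.72. In IkbkbCA microglia the same list had 2 higher (Marco and Cxcl16) and 3 lower (Stab1, Stab2 and Mrc1) of 10 tested. Cxcl16 was 504 ± 62.8 CPM in IkbkbCA (SD, n = 5) against a mean of 76.7 in IkbkbWT, and Stab1, a receptor of modified lipoproteins, fell by 1.92 on the log2 scale. Marco was 12.0, 18.6, 1101, 36.2 and 27.9 CPM in IkbkbCA libraries 1 to 5 against a mean of 1.87 in IkbkbWT, so that library 3 sets its mean. In Ikbkb-/- microglia 2 of 9 were higher and 4 lower, including Stab1 (-1.23) and the mannose receptor Mrc1 (-1.55), and in PS19 microglia 1 of 10 was higher, Clec7a, the β-glucan receptor, from 77.1 ± 9.51 to 317 ± 132 CPM (SD, n = 4).

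Relatives of Lrp1 were counted next. Of 13 LDL receptor family and sorting receptor genes, 2 were higher and 4 lower of 12 tested with tau fibrils, 1 and 3 with active IKKβ, and 3 and 2 with loss of IKKβ, and 0 of 11 were called in PS19. Sort1, which sorts cargo to the lysosome, was lower with tau fibrils (log2 fold change -0.71), in IkbkbCA (-0.90) and in Ikbkb-/- (-0.37). In the CD300 family, relatives of Cd300lf, Cd300c2 and Cd300ld rose with tau fibrils (0.93 and 0.76) and in Ikbkb-/- (0.29 and 0.56), and 0 of 4 tested were called in IkbkbCA or in PS19.

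Downstream and partner genes moved as follows. The clathrin endocytosis list had 7 of 16 higher and 0 lower with tau fibrils, and 0 higher and 7 lower of 17 with active IKKβ. Ap2m1, a subunit of the adaptor that loads receptors into clathrin pits, was 90.1 ± 13.9 CPM with tau fibrils against 53.9 ± 6.02 (SD, n = 4), and 42.4 ± 7.36 in IkbkbCA against 68.0 ± 7.63 (SD, n = 5). With loss of IKKβ 1 was higher and 3 lower of 17. Among 17 lipid uptake partners, Pparg, a nuclear receptor known to activate Cd36 in macrophages, was lower in IkbkbCA, at 2.37 ± 1.33 against 11.4 ± 1.95 CPM (SD, n = 5). In Ikbkb-/- Pparg was 5.96 ± 2.89 against 9.42 ± 1.42 CPM (SD, n = 4) and did not pass (log2 fold change -0.76, SE 0.28, edgeR, Benjamini-Hochberg FDR = 0.0791), and it was too sparse to be tested with tau fibrils or in PS19. Nr1h3, which encodes LXRα, rose with tau fibrils by 3.08 and in IkbkbCA by 2.24 on the log2 scale. The list had 6 higher and 1 lower of 16 with tau fibrils, 2 and 3 of 17 with active IKKβ, 3 and 2 of 16 with loss of IKKβ, and 0 of 14 in PS19. Heparan sulfate proteoglycans bind tau at the cell surface, and their list of 13 genes also held enzymes of heparan sulfate synthesis (Ext1, Ext2, Ndst1 and Ndst2). The proteoglycan gene Sdc3 was called higher in all 4 comparisons, by 1.37 with tau fibrils, 1.59 in PS19, 1.64 in IkbkbCA and 2.04 in Ikbkb-/- on the log2 scale. The enzyme gene Ndst2 was the other one called higher, with tau fibrils. Those lower were 5 of 11, 0 of 8, 2 of 10 and 2 of 9 in the same order. The enzyme genes Ext1 and Ndst1 were among those lower with tau fibrils and were the 2 lower in IkbkbCA. In Ikbkb-/- those lower were Sdc4 and Ext1. In the engulfment list Axl, a receptor for phosphatidylserine bridged by Gas6, was higher in all 4, by 0.66 with tau fibrils, 2.67 in PS19, 0.99 in IkbkbCA and 0.91 in Ikbkb-/- on the log2 scale. That list had 5 higher and 4 lower of 20 with tau fibrils, 1 and 0 of 18 in PS19, 3 and 3 of 20 with active IKKβ, and 1 and 0 of 20 with loss of IKKβ.

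**Figure D4:**
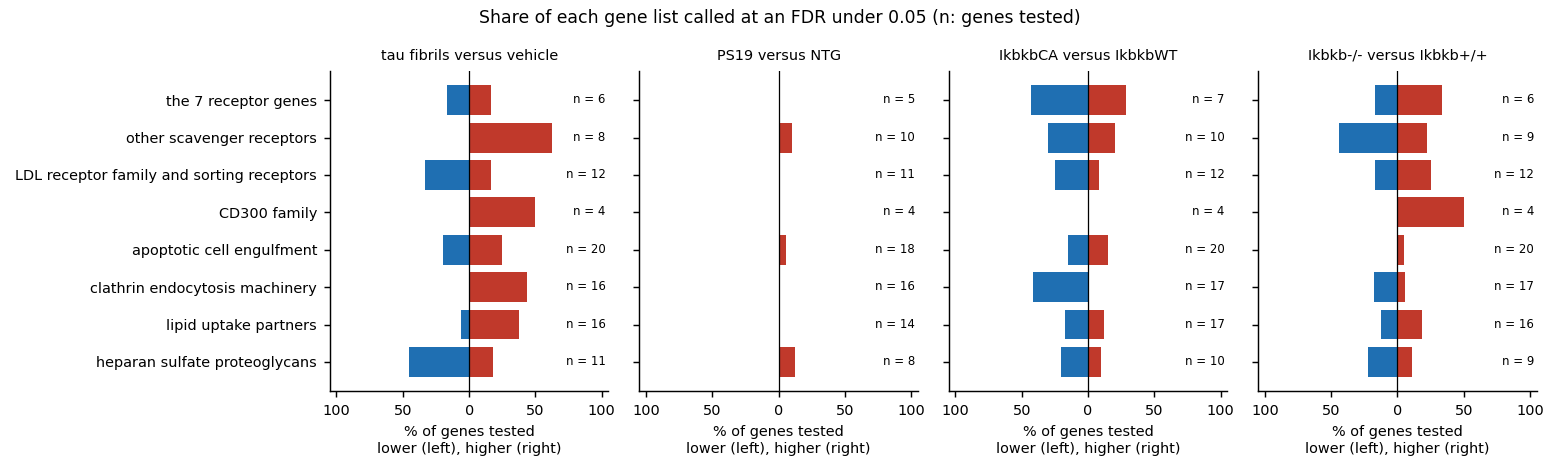
Share of the tested genes of each list called higher (right, red) or lower (left, blue) at a Benjamini-Hochberg FDR under 0.05, in % of the n genes tested, for the 4 comparisons. The clathrin list has 7 of 16 higher with tau fibrils and 7 of 17 lower in IkbkbCA, and the PS19 panel holds 3 calls in all.

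Genes whose expression varied most like that of each member were listed over the 34 libraries, after each library was centred on its experiment, among 8405 genes. For Cd36 these were Itsn1, which encodes an endocytic scaffold protein, with a Pearson r of 0.91, Ednrb (0.88) and Vav3 (0.87). For Lrp1 they were Man2a2 (0.78), Sort1 (0.77) and Slc17a5 (0.75), and Man2a2 was also among those of Scarb1 (0.80), beside Tecpr1 (0.81) and Paqr7 (0.79). Msr1 varied most like Cfp (0.85), Adam8 (0.84) and Ehd1 (0.83), the last an endocytic recycling gene. The closest to Olr1 were Ndufc2 (0.82), Procr (0.74) and Lyz2 (0.74), to Cd5l S100a1 (0.78), Ogfod2 (0.74) and Myo5a (0.74), and to Cd300lf Olfml3 (0.77), Pbxip1 (0.77) and Trem1 (0.73). Among the members themselves the strongest pairs were Scarb1 and Lrp1 (0.66), Scarb1 and Cd5l (0.58) and, in opposite directions, Msr1 and Lrp1 (-0.53). The points share experiments, depth and treatment differences, so these values describe the libraries.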

How the data were processed

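QuantSeq 3′ libraries of mouse microglia were sequenced and mapped to GRCm38 on the BlueBee platform, and the counts deposited by the authors are whole numbers of reads per GENCODE gene, 1 table per library, with replicates not pooled. The methods name RSEM, whereas each table ends in 5 lines for reads on no gene, as another counter writes them, and the counter was not settled here. These 5 lines were left out. They held 12.4% to 38.3% of reads outside genes and 0.409% to 0.708% ambiguous reads. Gene names came from GENCODE M21. Groups were taken from the sample labels, and all 34 microglial libraries were used. No pair of replicates held identical values.

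Each comparison was fitted on its own libraries in edgeR 4.0.16 (R 4.3.3) with TMM normalization, its default filter on low counts (10 reads) and the quasi-likelihood test, with Benjamini-Hochberg adjustment over all genes tested. Differences between effects were contrasts in a fit of the 4 groups, and intervals are 2 SE to each side, with the SE taken from the log2 fold change and the F statistic. The effects set against each other share no libraries. Exact permutation tests over libraries were used for genes the filter removed. Alternatives were RLE and total-count scaling, no filter, a mean of 10 counts, limma-voom (limma 3.58.1), DESeq2 1.42.0, 1 fit of all 34 libraries, age as a covariate for PS19, and leaving out each library. The sets of libraries and Ddx3y as covariates, and the fits within sets, were chosen after the data were seen. Members, gene lists and marker lists were chosen with earlier results of these data known. All members are described, list genes were named from the 3 highest and 3 lowest called per list and comparison (Sort1 and Axl with tau fibrils and the genes that lost a call under another scaling were added after their values were seen), and the 3 genes most like each member were those with the highest Pearson r among genes with a mean of at least 10 CPM. The test was checked on simulated counts, where 66.0% to 100% of 4-fold and 9.28% to 84% of 2-fold changes were recovered, depending on the comparison. Recovery of 2-fold changes was 17.3% in PS19 against NTG and 9.28% in tau fibrils minus PS19, so changes of that size would mostly be missed there. False calls made up 2.67% to 7.69% of the simulated calls, with 7.23% in IkbkbCA and 7.69% in Ikbkb-/-. The simulated counts held none of the library sets, sex or cell type differences described above. The rates of recovery and of false calls may therefore differ in the real libraries.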

Additional observations from a re-analysis of the deposited data

Results flagged for a closer look

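In groups of 4 or 5 libraries, 6 of 56 groups of member values held a library far from the others by Dixon's test, which chance gives in about 1 of 20 groups. Msr1 was 65.0 CPM and Cd5l 21.7 CPM in PS19 1, against at most 19.9 and 3.74 CPM in the other PS19 libraries, and that library also held the most Xist. Cd300lf was 18.7 CPM in IkbkbCA 3 against 69.8 to 77.6 in the other 4, and that library had the most oligodendrocyte marker RNA of its group. Cd5l was 6.75 CPM in tau fibrils 4 against 12.8 to 13.2 in the others, and 0.571 CPM, a single read, in NTG 4 against 1.47 to 1.59. Olr1 was 0.508 CPM, again 1 read, in vehicle 4 and 0 in the other vehicle libraries.

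Fitted effects that stood apart between comparisons were those in IkbkbCA against Ikbkb-/- on Olr1 (5.04 on the log2 scale), Scarb1 (-0.88) and Lrp1 (-0.64). Those with tau fibrils against IkbkbCA stood apart on Cd36 (1.55). Those on Scarb1, Lrp1 and Cd36 passed the edgeR test of the difference itself. Olr1 was too sparse to be tested in Ikbkb-/- (0 to 5 counts) and entered the fit through IkbkbCA alone, so its value is a description. The Scarb1 difference was lost in 15 of its 21 alternatives.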

How the results depend on the processing

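There were 14 called member values, fold changes and differences, with the Olr1 fold change and difference included as descriptions. Of these, 9 stayed past the threshold under every alternative run and 0 changed sign. Those that lost their call in some were Scarb1 in IkbkbCA (2) and its difference from Ikbkb-/- (15), the Lrp1 difference from Ikbkb-/- (1), and Cd5l (2) and Cd300lf (8) in Ikbkb-/-. Of all 821 alternative fold changes, 755 kept direction and side, 28 lost and 15 gained a call, and 23 changed sign, all of them of members not called. The causes were not tested. With no filter 1 member was called higher in PS19 (Cd5l). In Ikbkb-/- the members called higher were 1 with DESeq2, 0 with 1 fit of all 34 libraries and 0 with Ddx3y as a covariate. Members lower in IkbkbCA relative to Ikbkb-/- were 1 with limma-voom and 0 with 1 fit of all libraries, and relative to PS19 1 was lower with tau fibrils in that fit (Lrp1). With limma-voom the sign changed for Cd36 in PS19 (-0.56), for Olr1 with tau fibrils minus IkbkbCA (-0.97) and for Cd36 with tau fibrils minus PS19 (0.36). It also changed for Msr1 within IkbkbCA libraries 1 and 2 (-0.19) and for Lrp1 with tau fibrils minus IkbkbCA in 1 fit of all libraries (0.014).

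Leaving out 1 library at a time gave 1 to 2 members higher with tau fibrils, 1 to 2 higher in Ikbkb-/-, 1 to 3 lower in IkbkbCA relative to Ikbkb-/-, and 0 to 1 higher and 0 to 1 lower with tau fibrils relative to PS19. The member lower with tau fibrils relative to PS19 was Cd5l, without PS19 3, a value that is a description only. Log2 fold changes that changed sign ran in PS19 from -0.12 to 0.83 (Msr1), -0.78 to 0.36 (Cd36) and -0.19 to 0.047 (Lrp1), in Ikbkb-/- from -0.19 to 0.0038 (Msr1) and -0.071 to 0.0049 (Lrp1), in IkbkbCA minus Ikbkb-/- from -0.45 to 0.024 (Cd36), in tau fibrils minus IkbkbCA from -0.46 to 2.41 (Olr1) and -0.15 to 0.018 (Lrp1), and in tau fibrils minus PS19 from -0.47 to 0.68 (Cd36).

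Genes called moved by over 1.5 times in these fits. In PS19, 79 were higher and 19 lower with DESeq2, 127 and 39 with no filter, 300 and 75 in 1 fit of all libraries, 4 higher with limma-voom, 0 higher with age as a covariate, 4 higher without NTG 1, and 39 higher and 15 lower without PS19 2. In 1 fit of all libraries 773 were lower with tau fibrils, 447 lower in IkbkbCA, 264 higher and 251 lower in Ikbkb-/-, 26 lower in IkbkbCA minus Ikbkb-/-, 256 lower in tau fibrils minus IkbkbCA and 950 higher in tau fibrils minus PS19. In IkbkbCA 536 were lower with no filter, 1286 higher and 1560 lower with the sets as a covariate, and 1427 and 1303 higher within libraries 1 and 2 and within 4 and 5. Leaving out 1 library gave as few as 515 lower in IkbkbCA (without IkbkbWT 1), 46 lower in IkbkbCA minus Ikbkb-/- (without Ikbkb+/+ 3) and 249 and 212 lower in tau fibrils minus IkbkbCA and minus PS19 (without tau fibrils 3), and up to 817 higher in the last (without PS19 2). Total-count scaling gave 193 lower in IkbkbCA minus Ikbkb-/-. With Ddx3y as a covariate 385 were higher and 397 lower in Ikbkb-/-. Scarb1 in vehicle went from 34.4 to 38.3 CPM with total-count scaling. No paired analysis was possible because the labels give no replicate numbers, and the numbers used here follow accession order and tie no library to another. The 3 sets of IkbkbWT and IkbkbCA libraries used as a covariate were seen in the data, not in the labels. Depth limits Olr1, with 0 to 13 counts per library outside IkbkbCA and PS19, and Cd5l in NTG, with 1 to 7.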
